A study of Mus musculus with 19 samples.

Results

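Non-ischemic gastrocnemius muscle of mice injected with a scrambled oligonucleotide was compared with the same muscle of untreated mice, across the genes measured on Illumina bead arrays. The comparison took all arrays whose title reads scramble, 3 days and control (4) and all arrays titled untreated (3), which are 7 of the 19 arrays of the study. Every group was of CD1 mice aged 2 months. The scramble mice had received 12 mg/kg of SCR, a 15-nucleotide locked nucleic acid (LNA) oligonucleotide with a phosphorothioate backbone, in 200 µl of saline through the tail vein, and the femoral artery was dissected 2 days later. Muscle was taken 3 days after that, and the muscle used here is labelled control or non-ischemic. No injection, saline or surgery is given for the untreated mice, so the oligonucleotide, the injection, surgery elsewhere in the animal and the time since cannot be told apart in this comparison. A further group of 4 arrays, non-ischemic muscle after an oligonucleotide against miR-210 (anti-miR-210) given at the same dose and times, is set beside it. The labels do not say whether a non-ischemic muscle lay opposite an ischemic one. Nor do they say that replicates came from different mice, so the p-values cover only the scatter of these arrays, part of which may be technical.

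Gastrocnemius is a calf muscle of mostly fast fibres, marked by skeletal actin, the fast myosin heavy chains, creatine kinase and myoglobin. LNA oligonucleotides given through a vein distribute widely and accumulate most in liver and kidney, and a scrambled sequence serves as the control for the chemistry and the injection. Hepatocytes secrete most plasma proteins, among them albumin, transthyretin, apolipoproteins and the major urinary proteins, and their transcripts are scarce in muscle. Liver transcripts in some of the muscle arrays were therefore handled before muscle genes were described.

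The sequences of both oligonucleotides are shown with mouse miR-210-3p, the target of anti-miR-210, because they define what the mice received; in the miRNA the seed (bases 2 to 8) is in capitals, and in each oligonucleotide the longest run complementary to miR-210-3p is in capitals.
mmu-miR-210-3p: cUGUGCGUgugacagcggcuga
anti-miR-210: GCTGTCACACGCACA
SCR: cgtctAGCCacctag
The miRNA, from RefSeq on GRCm38.p6, lies at chr7:141221407-141221428 on the minus strand.
All 15 bases of anti-miR-210 were complementary to bases 2 to 16 of miR-210-3p, which include the seed. The longest run of SCR complementary to it was 4 bases, outside the seed (bases 17 to 20). Both oligonucleotides were 60.0% G and C, but they were not rearrangements of the same bases and differed at 11 of 15 positions. Over 1738 mature mouse miRNAs the longest run complementary to SCR was 9 bases, in miR-5135, and 1 miRNA had its whole seed complementary to SCR. The arrays do not measure miRNAs.

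Liver transcripts set the untreated arrays apart. The liver score, the mean normalized log2 intensity of the 59 tested genes on a list of 76 hepatocyte genes, was 6.69, 8.43 and 10.37 on untreated replicates 1 to 3. It was 6.48 on scramble replicate 1 and 4.49, 4.45 and 4.50 on scramble replicates 2 to 4, and it lay between 4.43 and 4.71 on the other 12 arrays of the study. The 3 untreated arrays thus differed among themselves by more than scramble replicate 1 did from untreated replicate 1, and the groups did not overlap. The genes of the score passed the filter on detection through these same arrays, so their levels here are a description. Of the 59 genes, 56, 59 and 59 were detected on the untreated arrays and 52, 9, 10 and 8 on the scramble arrays. The summed level of the list on the linear scale ran from 20491 to 185895 in untreated muscle and from 1450 to 18465 after scramble. Probes detected over the whole array made up 36.4% ± 0.99 (SD, n = 3) of all probes in untreated and 34.3% ± 0.54 (SD, n = 4) in scramble muscle, which also did not overlap (two-sided exact permutation p = 0.0286, the lowest possible with groups of 3 and 4), and mean deposited intensity was 253 ± 43.0 and 226 ± 16.2 (exact permutation p = 0.343). Untreated replicate 1 and scramble replicate 1 carried nearly the same amount: scramble replicate 1 minus untreated replicate 1 had a median of -0.19 on the log2 scale over the 59 genes, against 1.59 for untreated replicate 1 minus the mean of scramble replicates 2 to 4.

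**Figure D1:**
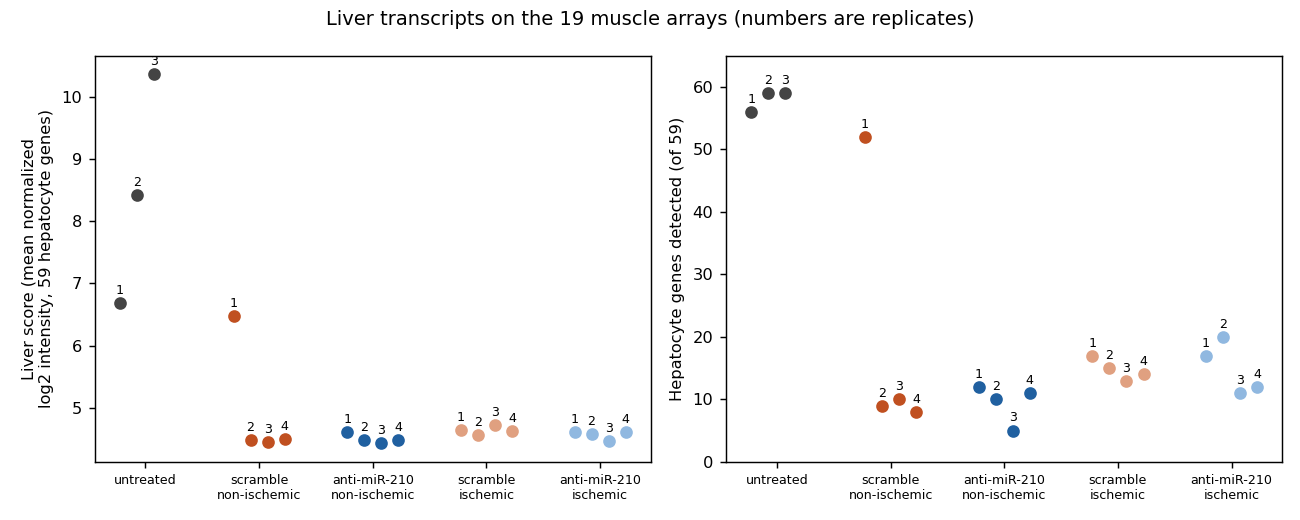
Liver score (mean normalized log2 intensity over 59 hepatocyte genes, left) and number of those genes detected (right) on each of the 19 arrays, by group, with the replicate number above each point. The 3 untreated arrays and scramble non-ischemic replicate 1 stand above 6 in score, and every other array lies below 5.

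Different kinds of change were separated by a fit to all 19 arrays. In the group fit, which holds a mean for each of the 5 groups, limma called 420 of 14646 genes at an adjusted p under 0.05 (2.87%), 151 higher after scramble (1.03%) and 269 lower (1.84%). The median change over all genes was 0.05 on the log2 scale. A second fit added the liver score, so that each gene also had a liver slope, its rise in log2 intensity per unit of liver score among arrays of a group. At equal liver score limma called 0 genes (lowest adjusted p 0.0788, 766 genes with an unadjusted p under 0.05), and the median standard error rose from 0.20 to 0.36 on the log2 scale. The rule that asked for a call in both fits therefore kept 0 genes. Of the slopes, 396 were called (2.7%), 368 of them above 0.

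The 420 called genes fell into 4 classes. The hepatocyte list held 52, all lower after scramble, with a median change of -3.41. A further 152 genes not on that list had a called slope above 0 and were all lower as well, with a median of -2.36. Only 2 genes had a called slope below 0, both higher. The remaining 214 had no called liver slope, 149 higher (1.02% of all genes) and 65 lower (0.444%), a class defined after the planned rule had left no genes. At equal liver score the median change of the first class was -0.03 and that of the second 0.42. The first class is part of the score and the second was chosen by its slope. Both medians are thus partly set by construction. Among the 214 the medians went from 0.90 to 0.76 for the 149 higher genes and from -0.97 to -0.63 for the 65 lower ones. The 214 were chosen for having no called slope, which limits how far the liver score can move them. Their medians are thus partly set by construction too. The arrays with similar liver level, scramble replicate 1 minus untreated replicate 1, had medians of -0.25 in the hepatocyte class, -0.11 in the other genes with a slope above 0, 0.78 in the 149 and -0.69 in the 65. Both arrays also entered the choice of called genes. The direction of this difference in any called gene is therefore partly set by that choice. The groups did not overlap for 148 of the 149 and 63 of the 65, where 16.6% of all genes tested did not overlap, and the choice by significance fixes most of this. A slope that was not called does not show that a gene has no liver transcripts. Of the 65 lower genes 20 had a slope, in either direction, with an unadjusted limma p under 0.05, as had 10 of the 149 higher ones. Without untreated replicate 3, the array with the highest liver score, 199 genes were called and 105 had no called slope, 59 of them among the 214. Without untreated replicate 1 the counts were 602 and 433, and without scramble replicate 2, 3 or 4 they fell to between 205 and 258 called and between 96 and 142 without a called slope.

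**Figure D2:**
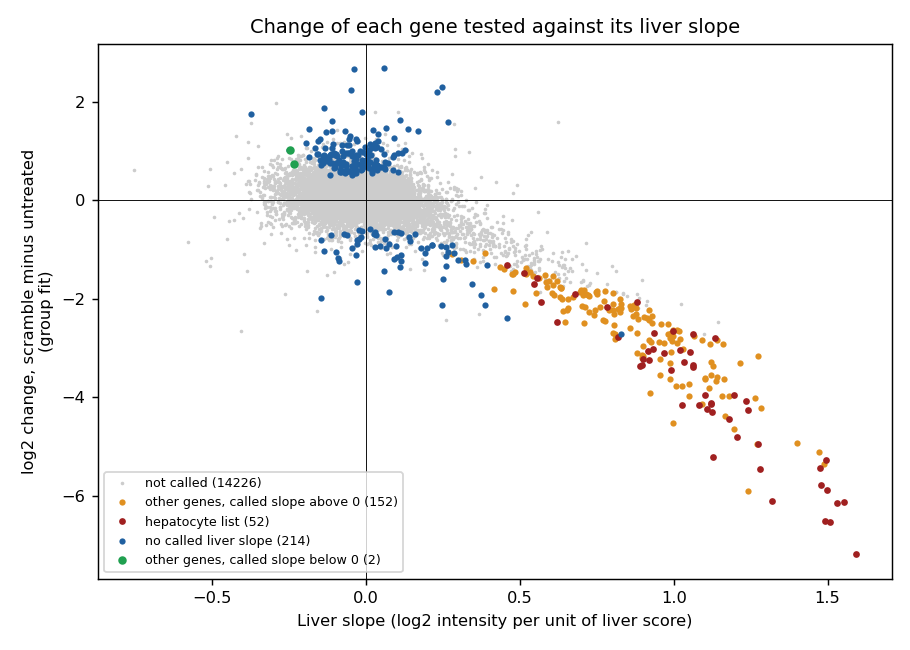
Each point is 1 of the 14646 genes tested, placed by its liver slope (log2 intensity per unit of liver score) and its log2 change, scramble minus untreated, in the group fit, and coloured by class. The 52 hepatocyte genes and the 152 other genes with a called slope run down to the right, and the 214 called genes with no called slope lie near a slope of 0 on both sides.

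The hepatocyte genes were the largest changes on the arrays. Apoa1, the main protein of high-density lipoprotein, read 9.38, 11.75 and 13.58 on the untreated arrays and 9.03, 4.24, 4.20 and 4.22 after scramble (log2 intensity throughout), a change of -6.15 ± 0.92 (standard error, SE; adjusted p = 0.00199). Scramble replicate 1 was close to untreated replicate 1, and the other scramble arrays were at the level of undetected probes. Ttr, the carrier of thyroxine and retinol, changed by -6.11 ± 0.88 (adjusted p = 0.00199). Serpina1b, an alpha-1-antitrypsin, changed by -5.89 ± 0.98 (adjusted p = 0.00276). Mup1, a major urinary protein, changed by -6.12 ± 0.96 (adjusted p = 0.00221). With the liver score in the fit the changes were -0.77 ± 0.64 for Apoa1, -1.47 ± 0.88 for Ttr, -0.62 ± 0.92 for Serpina1b and -0.65 ± 0.75 for Mup1, none of them called. Genes of the hepatocyte list make up the score, so their changes in that fit are partly set by its construction. Apoa1, Ttr, Serpina1b and Mup1 lost their calls when the 7 arrays were fitted alone (adjusted p 0.0573 to 0.0623). Ahsg, which encodes the plasma glycoprotein fetuin-A, read 8.32, 10.25 and 12.26 against 6.95, 4.34, 4.41 and 4.58 with a difference of -1.25 ± 0.22 at equal liver score (adjusted p = 0.0788, not called). Cyp2e1, an ethanol-oxidizing cytochrome P450, read 9.41, 11.06 and 12.55 on the untreated arrays, 9.03, 6.23, 4.48 and 7.36 after scramble and 6.60, 7.26, 6.46 and 6.19 after anti-miR-210 (-4.24 ± 1.07, adjusted p = 0.0364). It was thus also detected on arrays with little other liver signal, and its slope was not called. Hgd and Hpd, enzymes of tyrosine breakdown, changed by -2.72 ± 0.62 and -2.79 ± 0.68 (adjusted p = 0.02 and 0.0287). For both the groups overlapped: scramble replicate 1 (5.61 and 5.36) lay above untreated replicate 1 (5.06 and 4.82). Their changes at equal liver score were above 0, at 1.02 ± 0.33 for Hgd and 1.20 ± 0.44 for Hpd (adjusted p = 0.707 and 0.814). Alb and Fabp1 are on the array but were detected on fewer than 3 arrays and were not tested. Cyp2e1 lost its call without untreated replicate 2 or 3 or scramble replicate 2, 3 or 4 (adjusted p 0.0645 to 0.227). Hgd lost its call without untreated replicate 2 or 3 or scramble replicate 2, 3 or 4 (adjusted p 0.0573 to 0.0814). Hpd lost its call without untreated replicate 2 or 3 or scramble replicate 2, 3 or 4 (adjusted p 0.0709 to 0.101).

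The 152 lower genes with a called slope outside the hepatocyte list included further liver enzymes and plasma proteins. The 8 with the smallest p were Cyp4a12a (-3.92 ± 0.54), Cyp2c70 (-4.95 ± 0.72), Cyp2c67 (-3.97 ± 0.61), Gsta3 (-4.65 ± 0.68), Mat1a (-4.38 ± 0.66), Slc27a2 (-3.55 ± 0.55), Trf (-4.53 ± 0.71) and the probe name OTTMUSG00000007485 (-4.14 ± 0.62), with adjusted p-values of 0.00199 to 0.00222. The Cyp genes encode cytochromes P450 and Gsta3 a glutathione S-transferase. Mat1a encodes the methionine adenosyltransferase of liver, Slc27a2 a fatty acid transporter and Trf transferrin. Mat1a, for example, read 7.03, 9.11 and 11.44 on the untreated arrays and 6.46, 4.33, 4.23 and 4.23 after scramble. Its slope was 1.17 ± 0.05 and its change at equal liver score -0.27 ± 0.21. The Kupffer cell marker Vsig4, a complement receptor of liver macrophages, read 4.84, 5.45 and 6.34 on the untreated arrays and was undetected on all 4 scramble arrays, at least 1.97-fold lower (adjusted p = 0.013). At equal liver score its change was -0.17 ± 0.35, and without untreated replicate 3 its call was lost (adjusted p 0.0814). Clec4f, another Kupffer cell lectin, read 4.30, 5.05 and 6.39 against 4.27, 4.59, 4.39 and 4.21 and was not called (adjusted p = 0.126), although its liver slope was, at 0.37 ± 0.09. Vsig4 was the only one of 35 tested monocyte and macrophage genes called (0 higher, 1 lower), with a list median of -0.29.

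Acta1, Ckm, Mb, Myh4 and Tnnt3, which mark skeletal muscle, were at levels near the top of the range. Acta1 (skeletal actin) differed by 0.05 ± 0.13, Ckm (creatine kinase) by -0.03 ± 0.19 and Mb (myoglobin) by -0.07 ± 0.54. Myh4 (the fast IIb myosin heavy chain) differed by -0.15 ± 0.28 and Tnnt3 (fast troponin T) by -0.06 ± 0.17. None of these 5 was called (adjusted p 0.894 to 0.984). Casq1 and Ttn, also muscle markers, were lower but not called. Over the alternative ways of processing their changes ran from -1.04 to -0.65 and from -0.68 to -0.02. Changes of the 15 tested muscle identity genes ran from -0.87 to 1.07, with a median of -0.03. Of these, 1 was called higher and 0 lower. That gene was Neb, which encodes the thin-filament ruler nebulin, at 4.86, 4.42 and 4.19 on the untreated arrays and 5.44, 5.46, 5.56 and 5.77 after scramble, a change of 1.07 ± 0.20 (adjusted p = 0.00472). Its probe was dim and was detected on 1 of 3 untreated arrays and on all 4 scramble arrays. Jph2, which encodes junctophilin-2 of the contact between T-tubule and sarcoplasmic reticulum, was the only called member of 33 fast fibre genes, at 4.92, 4.68 and 4.74 against 5.59, 5.92, 5.74 and 5.70 (0.96 ± 0.16, adjusted p = 0.00268). For both genes the lowest scramble array lay above the highest untreated array, and scramble replicate 1 exceeded untreated replicate 1 by 0.57 for Neb and 0.67 for Jph2. Of 18 slow fibre genes 0 were called. The slow myosin heavy chain Myh7 varied within each group, from 6.89 to 8.68 and from 5.68 to 7.50 (-1.16 ± 0.44, adjusted p = 0.187), and its other 2 probes had the opposite sign. The Myh7 difference at equal liver score was -2.93 ± 0.60 (adjusted p = 0.167, not called), its scramble replicate 1 minus untreated replicate 1 difference was -3.00, and the median of the slow fibre list went from -0.06 to -1.01. Xirp1, which encodes the actin-binding Xin protein of myotendinous junctions and of muscle under repair, read 7.30, 7.12 and 6.06 against 7.91, 8.99, 9.00 and 8.42 (1.75 ± 0.40, adjusted p = 0.02). It was lowest on untreated replicate 3, and its change at equal liver score was 0.44 ± 0.61. Calls for Neb and Jph2 (highest adjusted p 0.0362) held without any 1 of the 7 arrays. Neb and Jph2 lost their calls with untreated replicate 1 set alone against scramble replicates 2 to 4 (adjusted p 0.235 to 0.571). Xirp1 lost its call without untreated replicate 3 or scramble replicate 2 or 3 (adjusted p 0.069 to 0.147).

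Energy metabolism genes of muscle were mostly not called. Of 71 tested oxidative phosphorylation genes (median 0.02), 25 of pyruvate entry and the tricarboxylic acid cycle (0.00) and 34 of glycolysis and glycogen (0.06), 0 were called. Acaa2, the mitochondrial thiolase of the last step of fatty acid beta-oxidation, read 9.73, 9.59 and 9.73 on the untreated arrays and 8.20, 7.50, 7.53 and 8.06 after scramble. The untreated arrays were close to each other although their liver scores differed, and all scramble arrays were lower. The change was -1.86 ± 0.36 (3.63-fold lower, adjusted p = 0.00727) and -1.59 ± 0.64 at equal liver score, and all 4 probes of the gene had the same sign. Acad8, the isobutyryl-CoA dehydrogenase of valine breakdown, read 6.89, 7.15 and 7.30 against 5.93, 5.52, 5.72 and 5.89 (-1.35 ± 0.24, adjusted p = 0.00405), with 1 of its 2 other probes of the opposite sign. Slc25a25, the mitochondrial carrier that exchanges ATP-Mg for phosphate and is induced by calcium, went the other way. It read 6.45, 7.06 and 8.11 on the untreated arrays and 8.95, 9.25, 9.33 and 10.12 after scramble, where the untreated array with the most liver transcripts was the nearest to the scramble arrays. Its change was 2.20 ± 0.31 (4.6-fold, adjusted p = 0.00199) and 3.01 ± 0.52 at equal liver score. Gpt, alanine aminotransferase, changed by -1.33 ± 0.32 (adjusted p = 0.0292; -0.41 ± 0.52 at equal liver score). Glud1, glutamate dehydrogenase, changed by -0.78 ± 0.20 (adjusted p = 0.0347; -0.56 ± 0.35 at equal liver score). Liver also expresses both genes at a high level. Calls for Acaa2, Acad8 and Slc25a25 (highest adjusted p 0.0318) held without any 1 of the 7 arrays. Acaa2 and Acad8 lost their calls with untreated replicate 1 set alone against scramble replicates 2 to 4 (adjusted p 0.224 to 0.373). Gpt lost its call without untreated replicate 2 or 3 or scramble replicate 1, 2, 3 or 4 (adjusted p 0.0526 to 0.218). Glud1 lost its call without untreated replicate 2 or 3 or scramble replicate 1, 2 or 4 (adjusted p 0.0537 to 0.227).

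The highest rises with no called liver slope were of varied function. RN18S, the name the array gives to 18S ribosomal RNA, had the smallest p of all genes: it read 11.09, 11.16 and 10.87 on the untreated arrays and 13.28, 13.12, 13.04 and 13.72 after scramble, a change of 2.25 ± 0.20 (4.75-fold, adjusted p = 1.4e-05). All 3 of its probes had the same sign, its change at equal liver score was 2.08 ± 0.36, and it read 13.37, 13.84, 13.42 and 13.15 after anti-miR-210. Arrays of either oligonucleotide were thus all above the untreated ones in this RNA, which in the mature ribosome has no poly(A) tail. No measure of RNA quality and no batch of RNA preparation or labelling is given in the labels, so these cannot be told apart from the groups. Dctn1, the p150 subunit of the dynactin motor complex, was undetected on the 3 untreated arrays and read 7.46, 6.68, 6.47 and 7.54 after scramble, at least 5.79-fold higher (adjusted p = 0.00296). Pigt, a subunit of the transamidase that attaches glycosylphosphatidylinositol anchors, read 5.22, 5.42 and 5.58 against 7.20, 6.88, 6.87 and 7.20 (1.63 ± 0.24, adjusted p = 0.00199). Both genes were chosen among those without overlap, so their scramble arrays stood clear of the untreated arrays by that choice. Hmgxb3, a high mobility group box protein, changed by 1.59 ± 0.35 (adjusted p = 0.0177), but its other probe changed by only 0.03. With the probes of a gene averaged the Hmgxb3 change was 0.81 and not called (adjusted p = 0.125). Chmp4b, a subunit of the membrane-cutting ESCRT-III complex, changed by 1.45 ± 0.31 (adjusted p = 0.0137). Mvb12b, a subunit of ESCRT-I, read 5.29, 5.63 and 5.17 against 7.05, 6.78, 6.68 and 6.64 (1.42 ± 0.25, adjusted p = 0.00332). Their differences between scramble replicate 1 and untreated replicate 1 were 2.11, 2.18 and 1.76, on arrays that also entered the choice of these genes. H2-T10, a nonclassical class I histocompatibility gene, changed by 2.67 ± 0.60 (adjusted p = 0.0191), but its other 2 probes had the opposite sign. After anti-miR-210 it was near the untreated level on 2 arrays and near the scramble level on the other 2 (4.29, 4.19, 7.15 and 6.71). It has close paralogs, and a probe may read several of them. Calls for RN18S, Dctn1, Pigt and Mvb12b (highest adjusted p 0.0187) held without any 1 of the 7 arrays. Dctn1 and Mvb12b lost their calls with untreated replicate 1 set alone against scramble replicates 2 to 4 (adjusted p 0.178 to 0.229). Hmgxb3 lost its call without untreated replicate 1 or 2 or scramble replicate 2 or 3 (adjusted p 0.055 to 0.0882). Chmp4b lost its call without untreated replicate 1 or 3 (adjusted p 0.0501 to 0.0589). H2-T10 lost its call without untreated replicate 2 or 3 or scramble replicate 2 (adjusted p 0.0635 to 0.0689).

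**Figure D3:**
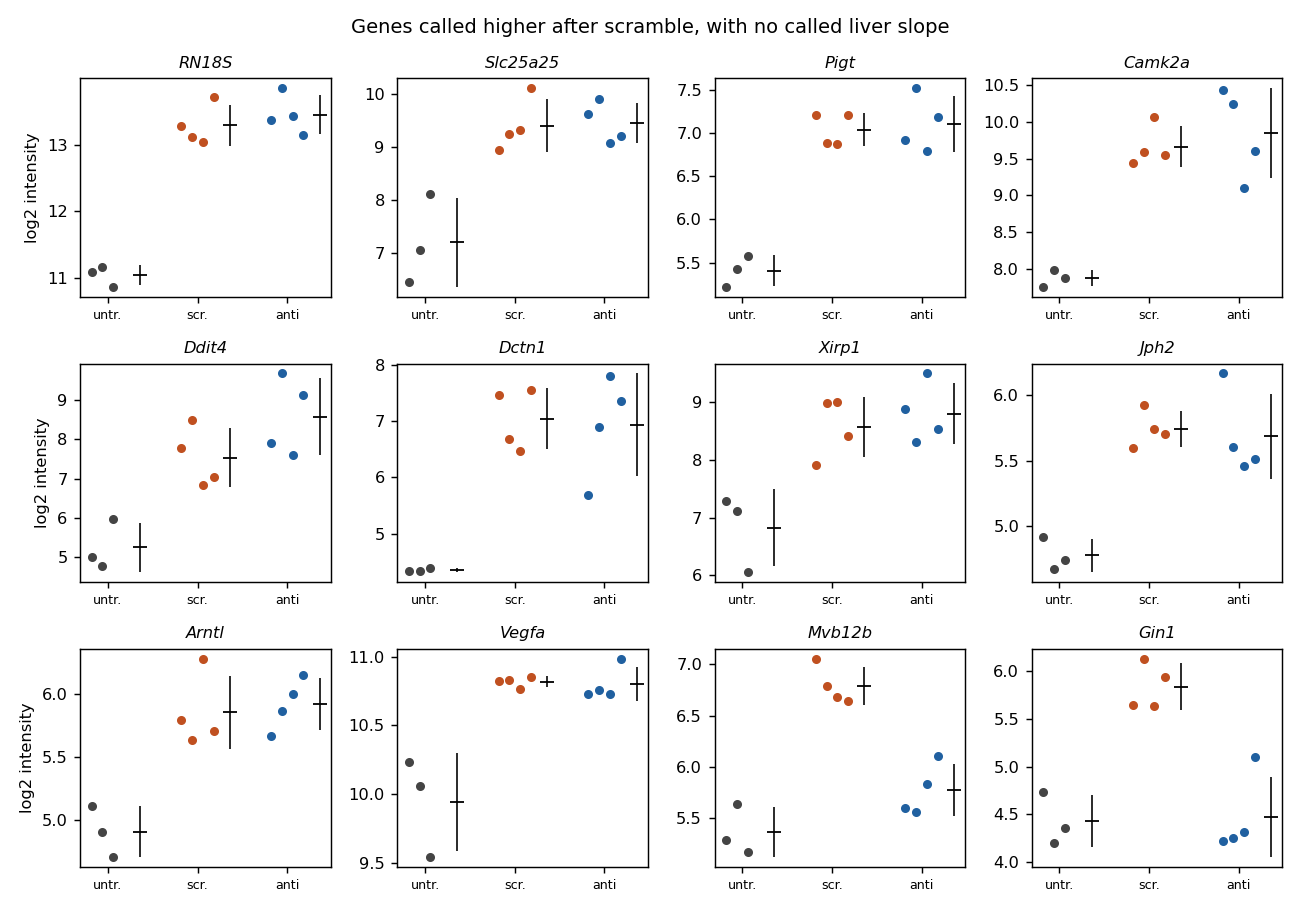
Normalized log2 intensity of 12 genes called higher after scramble with no called liver slope, on the 3 untreated (untr.), 4 scramble non-ischemic (scr.) and 4 anti-miR-210 non-ischemic (anti) arrays, in replicate order from left to right. Bars give the mean and SD, each panel has its own axis that does not start at 0, and in all 12 panels every scramble point lies above every untreated point. Many of these genes were chosen among those without overlap.

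Some further genes with no called liver slope rose. Camk2a and Vegfa were named through gene lists, and the others here after their values were seen, with no list behind the choice. Camk2a, the alpha subunit of calcium/calmodulin-dependent kinase II, read 7.76, 7.98 and 7.88 on the untreated arrays and 9.44, 9.59, 10.07 and 9.55 after scramble, a change of 1.79 ± 0.29 (3.46-fold, adjusted p = 0.00257). All 3 of its probes had the same sign, its slope was -0.01 ± 0.12, and it was the 1 called gene of 3 tested on a list of brain genes, though the kinase is also found in muscle. Ppp3ca and Ppp3cb, the catalytic subunits of the calcium-dependent phosphatase calcineurin, were higher by 0.55 ± 0.14 and 0.61 ± 0.13 (adjusted p = 0.0357 and 0.0124). Both are small changes, and for each gene the lowest scramble array was above the highest untreated one. Pde4d, a cyclic AMP phosphodiesterase, was higher by 1.14 ± 0.20 (adjusted p = 0.00357). Gsk3b, a kinase that inhibits glycogen synthase, was higher by 0.66 ± 0.16 (adjusted p = 0.0266). Dusp8 and Dusp16, phosphatases of the JNK and p38 kinases, were higher by 1.14 ± 0.24 and 1.08 ± 0.20 (adjusted p = 0.014 and 0.00472). Of 2 receptors, Ret, the tyrosine kinase of the GDNF family ligands, was higher by 1.47 ± 0.32 (adjusted p = 0.0158) and Uts2r, which binds urotensin II, by 1.40 ± 0.31 (adjusted p = 0.0164). Among secreted factors, Hbegf, a ligand of the EGF receptor, changed by 1.06 ± 0.22 (adjusted p = 0.0134) and Fgf6, a fibroblast growth factor of the muscle lineage, by 0.90 ± 0.17 (adjusted p = 0.0056). Vegfa, the endothelial growth factor that hypoxia induces, read 10.23, 10.06 and 9.54 against 10.82, 10.83, 10.76 and 10.85 (0.87 ± 0.20, adjusted p = 0.0213) and was lowest on untreated replicate 3. Vegfa and Ddit4 were the only called members of 25 hypoxia response genes (median 0.11), and Vegfa the only one of 27 on the endothelial list (median -0.13). Shisa2, a homologue of Xenopus Shisa, which holds back Wnt and FGF receptors, changed by 1.45 ± 0.32 (adjusted p = 0.0169).

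Calls for Camk2a, Pde4d, Dusp16 and Fgf6 (highest adjusted p 0.0392) held without any 1 of the 7 arrays. Fgf6 lost its call when the 7 arrays were fitted alone (adjusted p 0.0573). Camk2a, Dusp16 and Fgf6 lost their calls with untreated replicate 1 set alone against scramble replicates 2 to 4 (adjusted p 0.0732 to 0.426). Ppp3ca lost its call without untreated replicate 1, 2 or 3 or scramble replicate 2, 3 or 4 (adjusted p 0.0537 to 0.161). Ppp3cb lost its call without untreated replicate 3 (adjusted p 0.0678). Gsk3b lost its call without untreated replicate 1, 2 or 3 or scramble replicate 2, 3 or 4 (adjusted p 0.0503 to 0.0851). Dusp8 lost its call without untreated replicate 3 (adjusted p 0.0846). Hbegf lost its call without untreated replicate 3 (adjusted p 0.0846). Vegfa lost its call without untreated replicate 3 or scramble replicate 2, 3 or 4 (adjusted p 0.0506 to 0.162). Ret lost its call without untreated replicate 2 or scramble replicate 2 (adjusted p 0.062 to 0.0693). Uts2r lost its call without untreated replicate 2 or scramble replicate 2 or 3 (adjusted p 0.052 to 0.0786). Shisa2 lost its call without untreated replicate 2 or 3 or scramble replicate 4 (adjusted p 0.0522 to 0.107).

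Of 26 tested glucocorticoid response genes 2 were called higher and 0 lower, where 1.03% of all genes were called higher and 1.84% lower. Ddit4, an inhibitor of the mTOR complex 1 that glucocorticoids, hypoxia and fasting induce, read 5.01, 4.77 and 5.96 on the untreated arrays and 7.77, 8.50, 6.84 and 7.04 after scramble. The change was 2.29 ± 0.53 (4.89-fold, adjusted p = 0.0223), and 3.16 ± 0.92 at equal liver score. Tsc22d3, the glucocorticoid-induced leucine zipper, read 10.51, 10.35 and 10.72 against 11.32, 11.19, 11.59 and 11.74 (0.93 ± 0.23, adjusted p = 0.0343). These were the 2 called genes, and the list median was 0.25 beside 0.05 over all genes. Fkbp5, the glucocorticoid-induced co-chaperone, did not pass the test (0.01 ± 0.38, adjusted p = 0.998). Nor did Pdk4, a kinase that restrains pyruvate dehydrogenase (0.19 ± 0.45, adjusted p = 0.929), or Sgk1, a kinase induced by serum and glucocorticoids (0.66 ± 0.23, adjusted p = 0.145). The transcription factor Zbtb16 (0.67 ± 0.23, adjusted p = 0.142) was not called either, like the metallothioneins Mt1 (-0.43 ± 0.32, adjusted p = 0.623) and Mt2 (-0.14 ± 0.35, adjusted p = 0.937). Of 24 immediate early genes 0 were called (median 0.10). Ddit4 lost its call without untreated replicate 1 or 2 or scramble replicate 1 or 2 (adjusted p 0.053 to 0.095). It was also not called with the deposited normalized values (1.43, adjusted p 0.108), without background correction (1.28, adjusted p 0.166) or without the filter on dim probes (adjusted p 0.0757). Tsc22d3 lost its call without untreated replicate 1, 2 or 3 or scramble replicate 1, 2, 3 or 4 (adjusted p 0.0505 to 0.123). With the probes of a gene averaged its change was 0.62 and not called (adjusted p 0.269).

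Of 19 tested circadian clock genes 1 was called higher and 1 lower, with a median of -0.04, where 2.87% of all genes were called in either direction. Arntl, which encodes BMAL1, the partner of CLOCK that activates genes through E-box elements, read 5.11, 4.91 and 4.71 on the untreated arrays and 5.80, 5.64, 6.28 and 5.70 after scramble (0.94 ± 0.17, adjusted p = 0.00443). Ciart, which encodes a repressor of CLOCK and BMAL1 and peaks opposite to Arntl in mouse tissues, read 7.71, 7.87 and 7.66 against 6.56, 6.47, 5.88 and 6.30 (-1.44 ± 0.35, adjusted p = 0.0288), with the same sign for all 3 of its probes. Every scramble array was above every untreated array for Arntl and below for Ciart, and scramble replicate 1 minus untreated replicate 1 was 0.69 for Arntl and -1.15 for Ciart. Dbp, a transcription factor driven by CLOCK and BMAL1, had lower values on all scramble arrays (11.71, 11.78 and 11.87 against 11.08, 10.69, 10.70 and 10.91) but was not called (-0.94 ± 0.31, adjusted p = 0.118). The repressors Per1 (0.67 ± 0.34, adjusted p = 0.384), Per2 (0.06 ± 0.25, adjusted p = 0.968) and Nr1d1 (-0.16 ± 0.35, adjusted p = 0.924) were not called. Clock (0.16 ± 0.17, adjusted p = 0.757), Tef (0.10 ± 0.28, adjusted p = 0.94) and Cry2 (0.16 ± 0.16, adjusted p = 0.745) were not called either. The hour of day of sampling is not given in the labels, so it cannot be told apart from the groups here. The call for Arntl held without any 1 of the 7 arrays (highest adjusted p 0.0307). Arntl lost its call when the 7 arrays were fitted alone (adjusted p 0.0563). Arntl lost its call with untreated replicate 1 set alone against scramble replicates 2 to 4 (adjusted p 0.459). Ciart lost its call without untreated replicate 2 or 3 or scramble replicate 2, 3 or 4 (adjusted p 0.0636 to 0.1).

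The promoters of Arntl and Ciart, the 2 called clock genes, are shown from RefSeq on GRCm38.p6, from 250 bases before to 50 after the start, with matches to the searched motifs in capitals on either strand.
Ciart, chr3:95882179-95882478 (minus strand): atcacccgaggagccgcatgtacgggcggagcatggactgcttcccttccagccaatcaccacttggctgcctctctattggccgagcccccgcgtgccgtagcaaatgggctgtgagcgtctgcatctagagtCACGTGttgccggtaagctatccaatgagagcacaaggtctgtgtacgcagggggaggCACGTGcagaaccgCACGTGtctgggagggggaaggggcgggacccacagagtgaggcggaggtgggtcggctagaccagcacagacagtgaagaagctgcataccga
Arntl, chr7:113207261-113207560 (plus strand): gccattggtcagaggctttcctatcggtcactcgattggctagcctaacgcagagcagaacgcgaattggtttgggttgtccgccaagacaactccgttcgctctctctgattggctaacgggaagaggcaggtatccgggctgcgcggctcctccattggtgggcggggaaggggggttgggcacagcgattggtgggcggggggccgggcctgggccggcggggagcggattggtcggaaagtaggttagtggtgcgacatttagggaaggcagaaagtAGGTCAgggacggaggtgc
The motifs were CACGTG (the E-box bound by CLOCK and BMAL1), TTATGTAA (the D-box) and AGGTCA (the half-site of ROR and REV-ERB), which do not overlap each other. Ciart held 3 copies of CACGTG and none of the others, and 7.15% of 32851 promoters of the same length held at least 1. Arntl held 1 AGGTCA in the window of the start shown, as did 16.26% of promoters, and the window of its other listed start held none of the motifs. Of the other clock genes searched, Per1 (in 1 of 2 windows), Tef (in both) and Bhlhe41 also held 1 CACGTG, and none of these 3 was called. AGGTCA also lay in 1 window of Per1, in 1 of Clock and in that of Nr1d2. TTATGTAA, found in 0.94% of promoters, had 2 copies in Per3. None of these genes was called either. A match is a description of these letters only.

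The falls with no called liver slope included 3 matrix genes. Chad (chondroadherin), Comp (cartilage oligomeric matrix protein) and Fmod (fibromodulin), matrix proteins of cartilage and tendon, were called lower, and Fap, a protease of activated fibroblasts, higher, out of 39 tested fibroblast and matrix genes (median 0.04). Chad read 6.03, 6.42 and 7.92 on the untreated arrays and 4.75, 4.42, 4.88 and 4.64 after scramble (-2.12 ± 0.35, adjusted p = 0.00271). Comp read 6.66, 7.32 and 8.10 against 5.80, 5.28, 5.43 and 5.22 (-1.93 ± 0.43, adjusted p = 0.0192). Fmod read 6.70, 6.82 and 7.72 against 6.05, 5.49, 4.80 and 5.16 (-1.71 ± 0.32, adjusted p = 0.00641). The groups did not overlap for any of the 3, but all were highest on untreated replicate 3, the array with the most liver transcripts. Their slopes were 0.39 ± 0.12, 0.38 ± 0.16 and 0.34 ± 0.11, not called, and their changes at equal liver score were -0.76 ± 0.50, -0.61 ± 0.68 and -0.50 ± 0.48. Prg4, the joint lubricant lubricin, changed by -1.16 ± 0.29 (adjusted p = 0.037), with its other probe of the opposite sign. Fap read 5.05, 4.88 and 4.94 against 5.44, 5.63, 5.86 and 5.85 (0.74 ± 0.18, adjusted p = 0.0293). Col7a1, the anchoring fibril collagen, rose by 1.39 ± 0.32 (adjusted p = 0.0212). Krt8 and Krt18, the paired keratins of simple epithelia, which hepatocytes also express, were also called lower. Krt8 changed by -2.13 ± 0.33 (adjusted p = 0.002), and Krt18, undetected on all 4 scramble arrays, was at least 2.86-fold lower (adjusted p = 0.0304). Krt18 read 6.77, 4.69 and 6.78 on the untreated arrays, and Krt8 read 6.52, 5.58 and 7.71, so that both were lowest on untreated replicate 2, an order unlike that of the liver score. 

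Calls for Chad and Krt8 (highest adjusted p 0.0132) held without any 1 of the 7 arrays. Krt8 lost its call when the 7 arrays were fitted alone (adjusted p 0.0537). Chad lost its call with untreated replicate 1 set alone against scramble replicates 2 to 4 (adjusted p 0.239). Comp lost its call without untreated replicate 2 or 3 or scramble replicate 2, 3 or 4 (adjusted p 0.0503 to 0.129). Fmod lost its call without untreated replicate 3 (adjusted p 0.0506). Prg4 lost its call without untreated replicate 3 or scramble replicate 1, 3 or 4 (adjusted p 0.0848 to 0.272). Fap lost its call without untreated replicate 2 or 3 or scramble replicate 2, 3 or 4 (adjusted p 0.0666 to 0.109). Col7a1 lost its call without untreated replicate 3 or scramble replicate 2, 3 or 4 (adjusted p 0.0502 to 0.126). Krt18 lost its call without untreated replicate 1 or 3 or scramble replicate 1, 2, 3 or 4 (adjusted p 0.0685 to 0.214).

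Other called falls had no called liver slope either. Prune2 read 8.01, 7.67 and 7.64 on the untreated arrays and 5.44, 5.86, 5.94 and 5.89 after scramble (-1.99 ± 0.38, adjusted p = 0.00602), and scramble replicate 1 minus untreated replicate 1 was -2.57. Vti1b, a SNARE protein of endosomal fusion, read 11.09, 11.11 and 10.81 against 10.00, 9.96, 9.76 and 9.85 (-1.11 ± 0.21, adjusted p = 0.00689, -1.09 between those arrays). Tspo, the translocator protein of the outer mitochondrial membrane, read 9.43, 9.43 and 9.27 against 8.53, 8.55, 8.18 and 8.68 (-0.89 ± 0.21, adjusted p = 0.024, -0.90), with all 3 probes of the same sign. In these 3 genes the untreated arrays did not rise with the liver score, and their slopes were -0.15 ± 0.16, -0.03 ± 0.09 and -0.03 ± 0.09. Nfe2l2, which encodes the antioxidant regulator NRF2, changed by -0.80 ± 0.21 (adjusted p = 0.0406). Lower too were Rassf8 (-1.02 ± 0.18, adjusted p = 0.00328) and the zinc finger gene Zfp869 (-1.05 ± 0.17, adjusted p = 0.00225, with both other probes of the opposite sign). Mal, a proteolipid of myelin and epithelia, was the only called member of 12 Schwann cell and nerve genes (-0.75 ± 0.17, adjusted p = 0.0172). The other Mal probe changed by only -0.10. Ifitm1, an interferon-induced membrane protein, changed by -1.19 ± 0.25 (adjusted p = 0.0133), with 2 of its 4 other probes of the opposite sign. Scramble replicate 1 minus untreated replicate 1 was -1.33 for Nfe2l2, -1.32 for Rassf8, -1.41 for Zfp869, -0.69 for Mal and -0.82 for Ifitm1. Calls for Prune2, Vti1b, Rassf8 and Zfp869 (highest adjusted p 0.0365) held without any 1 of the 7 arrays. Prune2, Vti1b and Rassf8 lost their calls with untreated replicate 1 set alone against scramble replicates 2 to 4 (adjusted p 0.0834 to 0.224). Zfp869 lost its call when the probes of a gene were averaged (adjusted p 0.429). Tspo lost its call without untreated replicate 1, 2 or 3 or scramble replicate 2 or 3 (adjusted p 0.0537 to 0.0864). Nfe2l2 lost its call without untreated replicate 1, 2 or 3 or scramble replicate 1, 2, 3 or 4 (adjusted p 0.0508 to 0.134). Mal lost its call without untreated replicate 2 or scramble replicate 2 or 4 (adjusted p 0.054 to 0.0732). It was also not called with probes averaged (adjusted p 0.0959), with median scaling (0.104) or with the 7 arrays fitted alone (0.0578). Ifitm1 lost its call without untreated replicate 3 (adjusted p 0.061). With the probes of a gene averaged its change was only -0.24 and not called (adjusted p 0.751).

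Some further falls leaned towards the liver score without a called slope. Apoe, the apolipoprotein E made by hepatocytes, macrophages and other cells, read 7.88, 8.98 and 11.21 on the untreated arrays and 7.70, 6.71, 5.83 and 6.37 after scramble, with scramble replicate 1 next to untreated replicate 1 (-2.71 ± 0.70, adjusted p = 0.0424). At equal liver score its change was 0.21 ± 0.96, and its slope was 0.83 ± 0.22. Ahcy, which hydrolyses S-adenosylhomocysteine, changed by -2.40 ± 0.58 (adjusted p = 0.0292; -0.79 ± 0.95 at equal liver score). Agpat2, an acyltransferase of triglyceride synthesis, changed by -1.60 ± 0.35 (adjusted p = 0.0164; -0.72 ± 0.58 at equal liver score). Both read highest on untreated replicate 3. Pgrmc1, a haem-binding membrane protein, changed by -1.31 ± 0.35 (adjusted p = 0.0491; 0.08 ± 0.49 at equal liver score). Gstm6, a glutathione S-transferase, changed by -1.29 ± 0.30 (adjusted p = 0.021; -0.14 ± 0.42 at equal liver score). Ftl1, the light chain of the iron store ferritin, changed by -0.91 ± 0.19 (adjusted p = 0.0109; -0.16 ± 0.26 at equal liver score). These 3 were also highest on untreated replicate 3. The part of liver transcripts in the changes of these 6 genes cannot be told apart from the groups. Apoe lost its call without untreated replicate 2 or 3 or scramble replicate 2, 3 or 4 (adjusted p 0.0753 to 0.308). Ahcy lost its call without untreated replicate 3 or scramble replicate 2, 3 or 4 (adjusted p 0.0527 to 0.223). Agpat2 lost its call without untreated replicate 3 or scramble replicate 2 or 3 (adjusted p 0.0579 to 0.104). Pgrmc1 lost its call without untreated replicate 2 or 3 or scramble replicate 1, 2, 3 or 4 (adjusted p 0.0531 to 0.328). Gstm6 lost its call without untreated replicate 3 or scramble replicate 1, 2 or 3 (adjusted p 0.0524 to 0.103). Ftl1 lost its call without untreated replicate 3 (adjusted p 0.061).

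**Figure D4:**
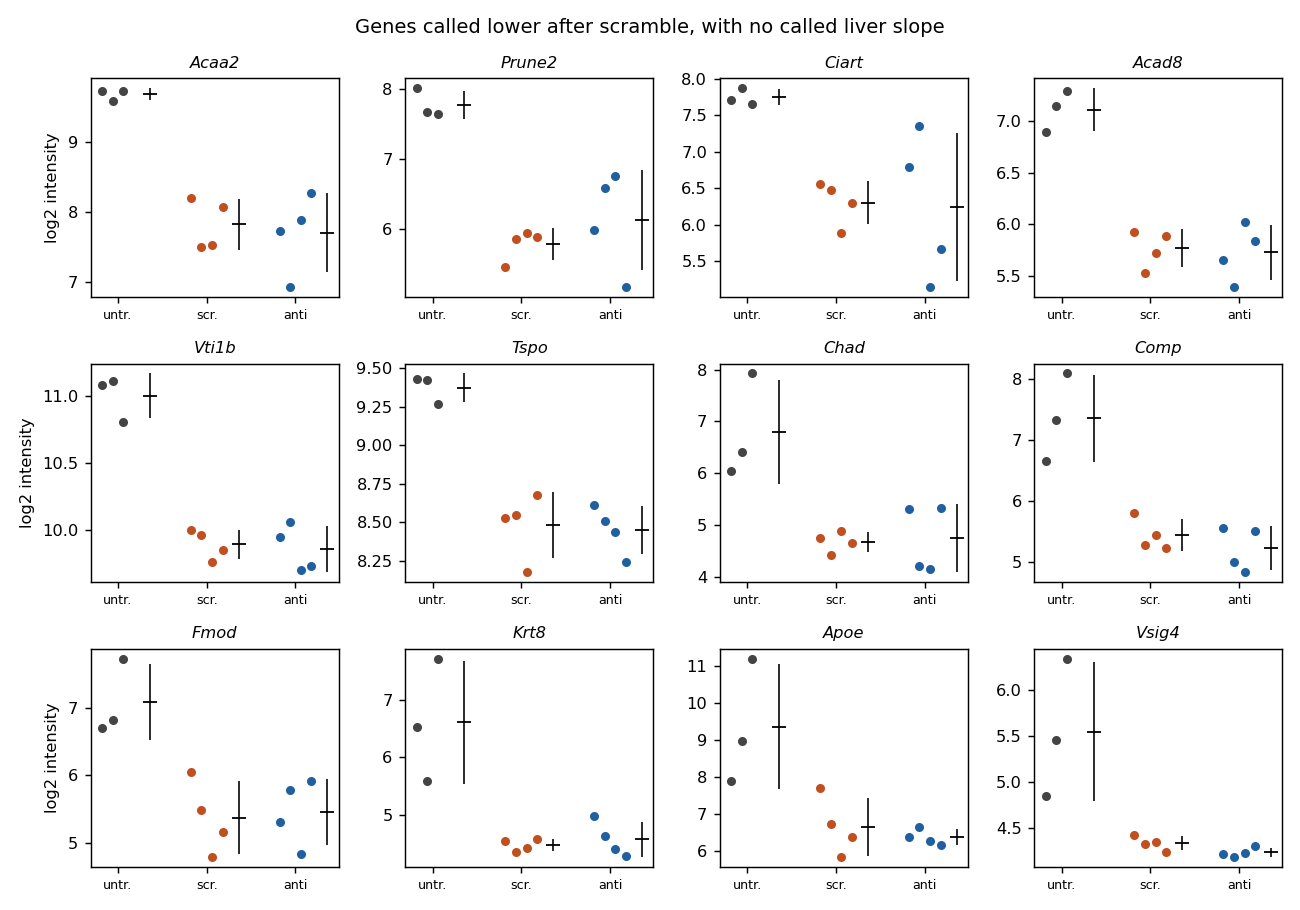
Normalized log2 intensity of 12 genes called lower after scramble with no called liver slope, on the 3 untreated (untr.), 4 scramble non-ischemic (scr.) and 4 anti-miR-210 non-ischemic (anti) arrays, in replicate order from left to right, with the mean and SD. Each panel has its own axis that does not start at 0. The untreated points of Acaa2, Ciart and Vti1b lie close together, and those of Chad, Comp, Apoe and Vsig4 are highest on the array with the highest liver score (the right point of the 3).

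Genes of immunity and of other cell types gave 0 calls on most lists. Of 34 tested interferon and nucleic acid sensing genes (median -0.16), 13 neutrophil (0.03), 16 lymphocyte (0.04), 32 cell cycle (-0.05), 25 lipid synthesis and adipocyte (-0.22), 25 regeneration and satellite cell (0.25), 33 heat shock and unfolded protein (0.01) and 9 erythroid genes (-0.02), 0 were called in the group fit. Of the markers of other tissues, 4 of 16 keratinocyte, 4 of 10 kidney and 6 of 11 heart genes could be tested, also with 0 calls. Irf7, a regulator of the interferon response, was undetected on all 7 arrays, and Ifit1 was not tested because it was detected on fewer than 3 arrays. Of 50 ribosomal protein genes (median 0.16), Rps26 alone was called, at 11.66, 11.81 and 11.85 against 12.25, 12.45, 12.30 and 12.32 (0.56 ± 0.12, adjusted p = 0.0148). Rps26 lost its call without untreated replicate 1 or scramble replicate 2 (adjusted p 0.0504 to 0.055). Of 34 antioxidant and metallothionein genes, 0 were called higher and 2 lower, Gsta3 and Ftl1. Of 29 atrophy and denervation genes Ddit4 alone was called, higher.

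**Figure D5:**
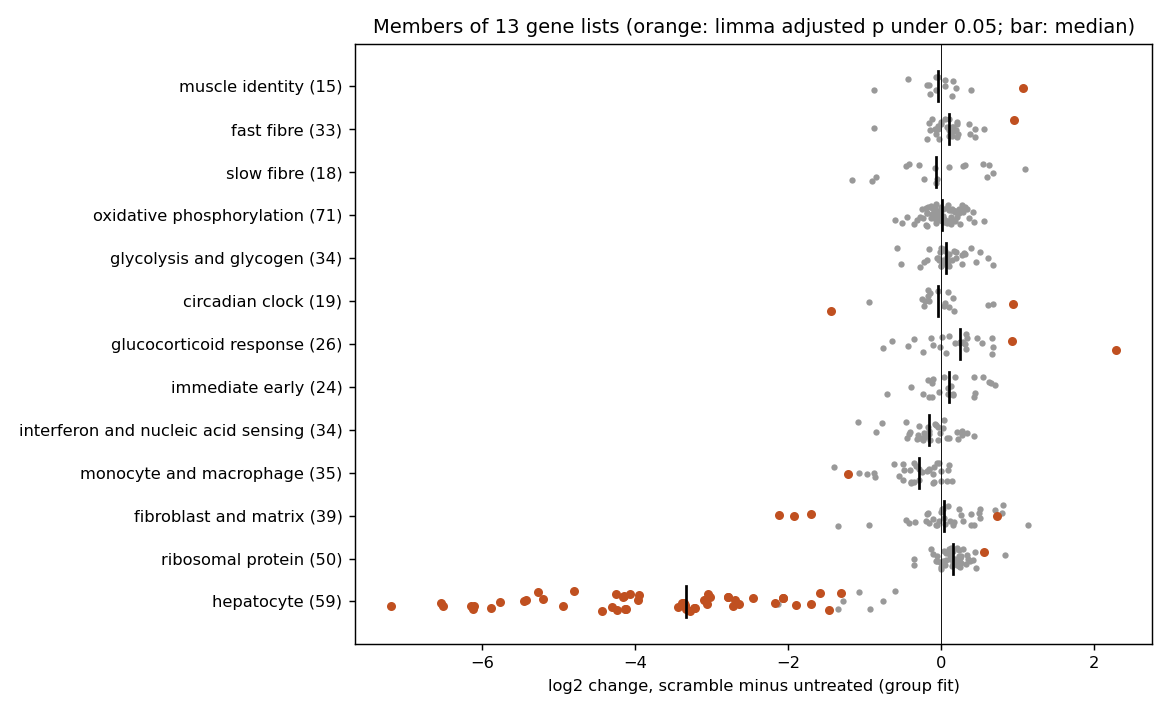
Log2 change, scramble minus untreated, in the group fit for each tested member of 13 gene lists (number of members in brackets). Orange points passed limma's adjusted p of 0.05 and black bars are list medians. Of the 59 hepatocyte genes 52 passed, and on every other list shown at most 4 did.

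Both oligonucleotides were set against the same 3 untreated arrays, so their changes share those controls and are given only side by side. RN18S changed by 2.41 ± 0.20 after anti-miR-210 and by 2.25 ± 0.20 after scramble. Slc25a25 changed by 2.25 ± 0.31 and 2.20 ± 0.31 in that order. Camk2a changed by 1.97 ± 0.29 and 1.79 ± 0.29 in that order. Ddit4 changed by 3.34 ± 0.53 and 2.29 ± 0.53 in that order. Pigt changed by 1.70 ± 0.24 and 1.63 ± 0.24 in that order. Arntl changed by 1.01 ± 0.17 and 0.94 ± 0.17 in that order. Acaa2 changed by -1.98 ± 0.36 and -1.86 ± 0.36 in that order. Ciart changed by -1.51 ± 0.35 and -1.44 ± 0.35 in that order. Prune2 changed by -1.65 ± 0.38 and -1.99 ± 0.38 in that order. Vti1b changed by -1.15 ± 0.21 and -1.11 ± 0.21 in that order. The direct comparison of anti-miR-210 with scramble, which does not use the untreated arrays, called 3 of 14646 genes (0.0205%; 947 had an unadjusted p under 0.05). Of the genes named here it called Gin1, a gene derived from a retrotransposon integrase. Gin1 read 4.74, 4.20 and 4.36 on the untreated arrays, 5.65, 6.13, 5.64 and 5.94 after scramble and 4.22, 4.25, 4.32 and 5.10 after anti-miR-210, so that it was high on all 4 scramble arrays, with 1 anti-miR-210 array between them and the rest. It was higher after scramble than in untreated muscle by 1.41 ± 0.24 (adjusted p = 0.00314), and anti-miR-210 minus scramble was -1.37 (adjusted p = 0.048). The Gin1 probe was dim, detected on 1 of 3 untreated, all 4 scramble and 1 of 4 anti-miR-210 arrays. The other Gin1 probe changed by only 0.17 between untreated and scramble muscle. Mvb12b read 5.60, 5.56, 5.83 and 6.11 after anti-miR-210, below all scramble arrays, but that difference of -1.01 did not pass the test (adjusted p = 0.431).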

How the data were processed

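Per the file headers, the deposited table holds 45281 probes on 19 arrays, with an average signal (bead intensity) and a detection p-value for each probe and array. The intensities were checked to be unnormalized. What software exported them was not found in the labels or headers. A second deposited table of intensity, which checked as quantile-normalized on the linear scale, served as an alternative after taking log2. Per the labels' protocols, RNA was extracted with Trizol, cleaned on RNeasy columns and made into biotinylated cRNA. No slide or batch is labelled, and the number of arrays limits the precision.

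Background correction and quantile normalization used neqc (limma 3.58.1, R 4.3.3; negative controls inferred from the detection p-values, offset 16) and log2 values were taken. The 21083 probes detected (p under 0.05) on 3 or more arrays were kept, and the brightest probe stood for each gene. Group means were fitted to all 19 arrays with limma's lmFit and eBayes and Benjamini-Hochberg adjustment over 14646 genes, with and without the liver score, and a gene is called at an adjusted p under 0.05. A group undetected on every array has only a bound, the other group's mean over the lowest detected signal of the arrays. Values of single measures were tested by exact permutation, two-sided. The procedure was tested on simulated data. Figures used matplotlib 3.10.9.

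The members, the 32 gene lists and the rules were chosen with earlier results of these data known. The rule for named genes takes the 15 highest and 15 lowest calls kept apart from liver without overlap, up to 3 members of each list with a call, a fixed set of marker genes, and the 8 genes with the smallest p that have a called liver slope. Since no gene was kept apart from liver, the 15 highest and 15 lowest genes with a symbol, no called liver slope and no overlap between groups were taken. They were chosen after their values were seen. So were the other genes named outside the rule, among them those of calcium and kinase signalling except Camk2a. Vti1b, Tspo, Nfe2l2, Rassf8 and Zfp869 were also chosen in this way. Of the probes, 60.5% carried a current symbol of a RefSeq table on GRCm38.p6, 18.3% an older symbol that was updated, 21.1% kept the file's name and 0.1% held a date. Isg15 was not found under that name. One gene, and the count of the list that holds it, is not reported here. Alternatives covered normalization, background, the filter, the probe of a gene, the arrays fitted, array weights, array brightness, the replicate number, the form of the liver score and leaving out arrays. Replicates with the same number did not deviate together (correlations of -0.39, -0.02 and -0.22 for numbers 1 to 3), so no pairing by number was seen. These values also carry the liver differences between arrays, so they cannot decide whether arrays of the same number shared a batch.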

Additional observations from a re-analysis of the deposited data

Results flagged for a closer look

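Each group of 4 scramble arrays was examined for an array far from the other 3, by the gap to its nearest neighbour over the range of the group, with Dixon's critical value. Chance marks about 1 in 20 groups, and 19 of 112 were marked, 17 of them for scramble replicate 1. Many of the groups are genes named for their liver signal, and these share the liver level of that array. The marks are thus not independent, and their number is a description. The liver score of that array was 6.475 against at most 4.502 on the others. Among hepatocyte genes and genes with a called liver slope it stood above the other 3 in log2 intensity for Apoa1 (9.035), Ttr (9.452), Serpina1b (9.846), Mup1 (9.443), Ahsg (6.947), Hgd (5.611), Cyp4a12a (5.247), Cyp2c70 (6.834), Cyp2c67 (5.721), Mat1a (6.464), Slc27a2 (5.706) and the probe OTTMUSG00000007485 (6.111).

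Scramble replicate 1 was also below the others for Prune2 (5.444), Dusp8 (8.291) and Clock (7.707), and above them for Tnnt3 (13.26). Scramble replicate 4 was above the others for Per2 (8.417) and below them for Hmgxb3 (8.089). Prune2 and Dusp8 kept their calls without scramble replicate 1, and the call of Hmgxb3 held without scramble replicate 4.

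Gin1 differed between the oligonucleotides: anti-miR-210 minus scramble in non-ischemic muscle was -1.365 (limma adjusted p = 0.048), with the highest anti-miR-210 array, at 5.10, below the lowest scramble array, at 5.64. Its probe was dim and was detected on only 1 anti-miR-210 array.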

How the results depend on the processing

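Of the 420 calls and the 214 with no called liver slope (149 higher, 65 lower), the counts stayed within 1.5 times under median scaling, mean of probes, detection on 3 of the 7 arrays, the deposited normalized values and the replicate block. They changed elsewhere, and the cause was not tested. Cyclic loess gave 117 lower genes without a called slope. No background correction gave 275 calls, and no filter on dim probes 235, with 131 lacking a called slope (94 higher, 37 lower). The 7 arrays fitted alone gave 125 calls and 122 without a called slope (90 and 32). Array quality weights gave 2070 and 1779 (1122 and 657). Array brightness as a covariate gave 350 without a called slope (232 and 118). Untreated replicate 1 against scramble replicates 2 to 4 alone, with a single untreated array assumed to vary like the other groups, gave 109 and 68 (11 higher), 14 of them among the 214. Leaving out 1 array gave 199 to 602 calls and 96 to 433 without a called slope (50 to 165 higher and 28 to 268 lower).

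At equal liver score, 0 genes were called and 0 kept apart from liver. Leaving out 1 array gave 0 to 140 calls, the 140 without scramble replicate 1, and kept 0 apart. Loess gave 3 calls with 1 kept apart, median scaling 1 with 0, no background correction 2 with 1, the deposited values 2 with 1, the 7 arrays alone 4 with 2, weights 10 with 7, and brightness 1 with 1. A liver score on the linear scale gave 18 calls and kept 6 apart, Slc25a25, Pigt, Hmgxb3 and RN18S higher and Rassf8 and Zfp869 lower. The higher share of the 420 calls was 35.9%, and it was 49.5% without background correction, 72.0% with the 7 arrays alone, 54.3% with weights, 25.1% without untreated replicate 3 and 10.1% for untreated replicate 1 against scramble replicates 2 to 4. Median scaling moved the median of all genes to 0.13. Of 79 genes called among those chosen for naming, 35 stayed called without any 1 of the 7 arrays, and 6 of these (Ahsg, Pde4d, Pigt, RN18S, Slc25a25 and Trf) under every alternative to the group fit. The calls lost were 57 with untreated replicate 1 against scramble replicates 2 to 4, 44 with the 7 arrays alone, 30 with no filter on dim probes, 13 each with the mean of probes and the replicate block, 12 with median scaling, 11 with no background correction, 8 with the deposited values, 4 with loess and 1 with weights, while 0 called changes turned sign under any alternative. The replicate block gave 348 calls and 174 without a called slope, of which 151 were among the 214, and no pairing by replicate number was seen.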
